A study of Mus musculus with 44 samples.

Results

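All 10 of 10 genes of IgA transport, plasma cells and B cells were found among the 31414 genes of the deposited table. They were chosen by name, as Pigr, Jchain, Igha, Ighm, Igkc, Mzb1, Tnfrsf17, Cd79a, Cd79b and Ms4a1, and the estimated counts of each gene's transcripts were summed. The libraries came from the gastric corpus of female BalbC mice aged 13 months. Knockout (KO) mice lacked the beta subunit of the H+/K+ATPase, the gastric proton pump, in every cell, whereas wild-type (WT) mice carried it, and the KO line had been back-crossed onto BalbC. Mice of both genotypes received repeated subcutaneous injections of netazepide (NTZ, labelled yf after its earlier name YF476), which blocks the gastrin receptor, or of its vehicle polyethylene glycol (PEG). There were 11 libraries of WT/PEG mice and 9 of WT/NTZ mice, with 13 of KO/PEG and 11 of KO/NTZ mice. The labels give more KO/PEG animal numbers than the study describes KO/PEG mice, and a pair of WT/PEG libraries (WT_172_WT_PEG_1 and WT_172_WT_PEG_2) carries the same animal number. These 2 differed in Igha (39.9 and 83.9 CPM, estimated counts scaled to equal library totals) and were kept apart. The titles KO_110_KO_PEG and KO_110_KO_YF also share a number, and nothing says whether they came from 1 animal. Leaving out both changed no call of these genes. P-values therefore measure the spread between libraries. Libraries are named below by their titles, in which YF stands for NTZ.

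IgA is the main antibody of mucosal surfaces. Plasma cells under the epithelium make it as pairs of heavy chains (Igha) and light chains (mostly kappa, Igkc), and the J chain (Jchain) joins such units into dimers. The polymeric immunoglobulin receptor (Pigr) on the basal side of epithelial cells binds the dimer through the J chain, carries it across the cell and releases it into the lumen with a part of the receptor attached. IgM (heavy chain Ighm) forms pentamers with the same J chain and can take the same route. B cells carry antibody as a membrane receptor that signals through Cd79a and Cd79b, and display Ms4a1 (CD20), which is lost when they become plasma cells. Mzb1, a helper of antibody assembly in the endoplasmic reticulum, and Tnfrsf17 (BCMA), a receptor for survival signals, mark plasma cells. The normal gastric corpus holds few of these cells.

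Secreted and membrane-bound antibody are read from the same heavy chain gene and differ at the end of the coding sequence. These ends are shown because the deposited table gives the 2 forms of Ighm and of Igha as separate transcripts, and because the secreted end carries the tailpiece through which IgA and IgM bind the J chain. Each line below gives the last 30 coding bases that both forms share in lower case and the bases found in that form alone in capitals, 5′ to 3′, without the stop codon, on the minus strand of chromosome 12 (GRCm38, GENCODE vM21). The secreted end of Ighm covers 59 bases from 113420870 to 113420928. Its membrane end covers 122 bases on 2 exons, from 113418953 to 113419068 and from 113418829 to 113418834. The secreted end of Igha covers 59 bases from 113258771 to 113258829 and its membrane end covers 194 bases from 113256204 to 113256397.
Ighm secreted: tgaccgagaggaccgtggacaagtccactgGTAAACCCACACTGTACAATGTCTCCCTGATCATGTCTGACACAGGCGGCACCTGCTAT
Ighm membrane: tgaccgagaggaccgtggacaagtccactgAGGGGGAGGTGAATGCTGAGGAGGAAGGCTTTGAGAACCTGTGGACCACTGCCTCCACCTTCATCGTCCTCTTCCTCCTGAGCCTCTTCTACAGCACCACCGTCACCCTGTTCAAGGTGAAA
Igha secreted: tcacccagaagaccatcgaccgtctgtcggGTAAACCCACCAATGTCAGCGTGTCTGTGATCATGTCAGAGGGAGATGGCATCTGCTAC
Igha membrane: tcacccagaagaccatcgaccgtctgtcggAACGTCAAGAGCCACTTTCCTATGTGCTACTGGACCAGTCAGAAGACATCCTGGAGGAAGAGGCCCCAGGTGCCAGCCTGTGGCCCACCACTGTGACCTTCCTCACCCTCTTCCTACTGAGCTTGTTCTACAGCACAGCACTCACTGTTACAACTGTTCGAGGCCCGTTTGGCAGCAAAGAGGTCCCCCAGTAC

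The promoters of Pigr and Jchain are shown because these genes, 1 of the epithelium and 1 of plasma cells, were both higher in KO mice. The RefSeq promoter table (GRCm38.p6) held 4 of the 10 genes, namely Pigr, Jchain, Tnfrsf17 and Cd79a. Each stretch runs from 250 bases before the start of transcription to 30 after it, and capitals mark matches to a searched motif on either strand. The Pigr stretch lies at chr1:130826434-130826713 on the plus strand, and the Jchain stretch at chr5:88527868-88528147 on the minus strand.
Pigr: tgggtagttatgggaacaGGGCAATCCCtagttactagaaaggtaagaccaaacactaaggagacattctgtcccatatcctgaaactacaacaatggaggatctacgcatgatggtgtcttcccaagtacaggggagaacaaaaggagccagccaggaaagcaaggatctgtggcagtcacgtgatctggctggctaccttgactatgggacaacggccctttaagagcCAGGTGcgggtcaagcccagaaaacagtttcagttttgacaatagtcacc
Jchain: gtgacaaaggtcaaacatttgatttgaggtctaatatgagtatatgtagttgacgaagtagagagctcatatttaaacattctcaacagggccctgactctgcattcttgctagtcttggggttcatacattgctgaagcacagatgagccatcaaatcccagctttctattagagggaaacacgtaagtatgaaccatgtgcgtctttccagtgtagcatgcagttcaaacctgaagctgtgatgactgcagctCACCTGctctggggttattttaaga
For each promoter, 4 motifs were searched on both strands over the 300 bases of the table. The Pigr promoter held the NF-kappaB motif (GGGA and CC with any 4 bases between, first base at -232) and the E-box CACCTG (-20), both on the strand opposite to the gene. The Jchain promoter held CACCTG at 6 bases after the start, Cd79a held it at -154, and Tnfrsf17 held the interferon response motif (GAAA, any 2 bases, GAAA) at -101. None of the 4 promoters held the octamer ATTTGCAT. Of all 32851 promoters in the table, 20.7% held the NF-kappaB motif, 20.2% the E-box, 3.44% the interferon response motif and 1.74% the octamer, so a match in a single promoter is a description only.

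The libraries held 6065084 to 21945124 estimated counts each. Atp4b, the deleted subunit, had a median of 3858 CPM in WT/PEG and 5.72 CPM in KO/PEG mice, lower where the labels give the knockout. Of the parietal and chief cell markers, 5 of 5 tested were lower in KO/PEG than in WT/PEG libraries, against 5535 of all 14893 tested genes called lower. The 5 include the deleted Atp4b itself. The share of counts in mitochondrial genes was 5.39% ± 3.21 (SD, n = 13) in KO/PEG and 9.08% ± 1.85 (SD, n = 11) in WT/PEG. Library WT_118_WT_YF of the WT/NTZ group stood apart from the other WT libraries. It had the highest level of Pigr, Jchain, Igha, Ighm, Igkc, Mzb1, Cd79a, Cd79b and Ms4a1 in its group, at a wild-type Atp4b level of 2140 CPM that was the lowest of the 20 WT libraries. Results that involve WT/NTZ are therefore given with and without it. In tissue pieces of this kind, more cells of a type and more RNA per cell cannot be told apart.

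A further 10 KO libraries stood apart in the antibody transcripts. They were KO_53_KO_PEG, KO_109_KO_PEG, KO_110_KO_PEG, KO_111_KO_PEG and KO_126_KO_PEG, with KO_29_KO_YF, KO_30_KO_YF, KO_36_KO_YF, KO_37_KO_YF and KO_110_KO_YF. From 0.814% to 1.33% of their counts lay in transcripts that could not be paired with a gene name, in comparison with at most 0.710% in the other 14 KO libraries and at most 0.480% in WT libraries. They held 0.00477 to 0.0496 counts of heavy chain variable genes (Ighv) for each Igha count, whereas the other 14 KO libraries held 0.0750 to 0.144. These 10 were set apart by the unpaired share alone (over 0.8%), after the data had been seen. Some of the results on antibody genes in KO mice are given again without them. Others are given with all KO libraries only. These include the NTZ effects on Igha and Igkc, and the differences of Ighm, Igkc, Igha and Jchain between KO/NTZ and WT/NTZ. The part of the difference between these 10 and the other libraries was not tested.

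In vehicle-treated mice, the genes of the whole route were higher in KO than in WT. All 9 members that passed the filter on low counts were called higher in KO/PEG than in WT/PEG (edgeR quasi-likelihood test, Benjamini-Hochberg adjusted p below 0.05 over 14893 genes), against 37.5% of all genes called higher and 74.7% called in either direction. The median log2 difference of the 9 was 3.73, and that of all genes was 0.00. Without the 10 KO libraries that stood apart, 9 of 9 were again called higher, with log2 differences from 2.10 for Ms4a1 to 6.85 for Pigr. Groups did not overlap for Pigr, Jchain, Igha, Igkc and Mzb1, in contrast to 5.47% of all tested genes that were higher without overlap. The untested Tnfrsf17 did not overlap either, though by a margin of few counts. The plot of levels by group shows the 10 genes in every library.

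**Figure D1:**
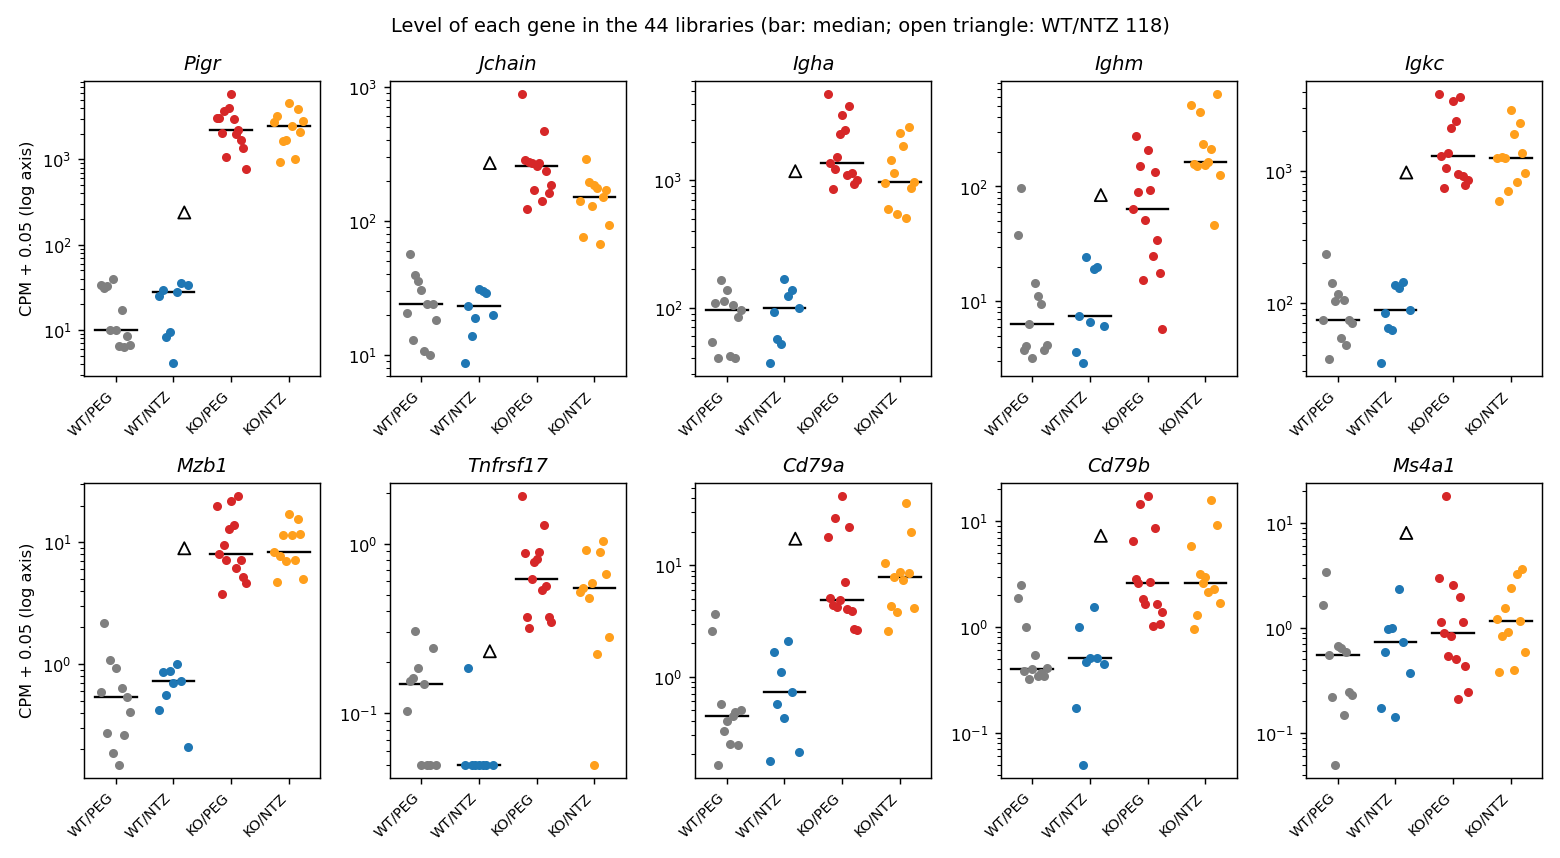
Level of each of the 10 genes in the 44 libraries, in CPM plus 0.05 on a log axis, by group. Each point is a library, the bar is the group median and the open triangle is WT_118_WT_YF. All KO points of Pigr lie above all WT points, whereas the points of Ms4a1 overlap between groups.

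Pigr, the epithelial carrier, showed the largest difference of the 9. Its level ranged from 6.30 to 40.1 CPM in WT/PEG mice (median 10.05) and from 773 to 5754 CPM in KO/PEG mice (median 2216). The lowest KO/PEG library was thus far above the highest WT/PEG library. The fitted difference was 141-fold (log2 7.14, SE 0.59, adjusted p = 1.14e-13). Pigr lies on chromosome 1 from 130826684 to 130852249 (plus strand, GRCm38) and 3 of its transcripts were in the table. Per transcript length its median rose from 2.94 to 701 TPM (transcript level per length, scaled to equal library sums). The WT/PEG libraries themselves fell in a lower range up to 17.0 CPM and 4 libraries between 30.8 and 40.1 CPM.

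Igha, the IgA heavy chain, ranged from 39.9 to 166 CPM in WT/PEG (median 95.3) and from 848 to 4718 CPM in KO/PEG (median 1374). The difference was 22.1-fold (log2 4.47, SE 0.49, adjusted p = 2.78e-10). Igkc, the kappa light chain that is joined to heavy chains of any class, ranged from 37.1 to 236 CPM in WT/PEG (median 73.5) and from 737 to 3817 CPM in KO/PEG (median 1309). Its difference of 18.8-fold (log2 4.23, SE 0.47, adjusted p = 2.99e-10) was close to that of Igha. Jchain, which joins IgA units, ranged from 9.92 to 56.7 CPM in WT/PEG (median 23.8) and from 122 to 875 CPM in KO/PEG (median 258). Its difference was 11.1-fold (log2 3.47, SE 0.45, adjusted p = 7.75e-09). Every KO/PEG library lay above every WT/PEG library for these 3 genes. Library KO_31_KO_PEG had the highest Igha, Igkc and Jchain of all libraries.

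Ighm, the IgM heavy chain, ranged from 3.17 to 97.3 CPM in WT/PEG (median 6.25) and from 5.64 to 277 CPM in KO/PEG (median 63.1). The groups overlapped, since libraries WT_120_WT_PEG and WT121_WT_PEG had 38.0 and 97.3 CPM and KO_144_KO_PEG had only 5.64 CPM. The difference was 5.05-fold (log2 2.34, SE 0.62, adjusted p = 0.000958). Of the 13 KO/PEG libraries, 12 were above the WT/PEG median and 4 above the highest WT/PEG library.

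Of the plasma cell genes, Mzb1 ranged from 0.0998 to 2.11 CPM in WT/PEG (median 0.486) and from 3.70 to 23.9 CPM in KO/PEG (median 8.02). The difference was 18.1-fold (log2 4.18, SE 0.50, adjusted p = 1.69e-09). Tnfrsf17 was too low for the filter and was not tested in the main fit. Its level ranged from 0 to 0.256 CPM in WT/PEG and from 0.270 to 1.86 CPM in KO/PEG. The lowest KO/PEG library (KO_46_KO_PEG, 4 counts) was thus only just above the highest WT/PEG library (WT_129_WT_PEG, 3 counts). With no filter on low counts Tnfrsf17 differed by log2 2.91 (SE 0.49, adjusted p = 2.47e-06).

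The B cell genes overlapped between the groups. Cd79a, the signalling partner of the membrane antibody, ranged from 0.112 to 3.59 CPM in WT/PEG (median 0.388) and from 2.60 to 41.9 CPM in KO/PEG (median 4.83), a difference of 13.3-fold (log2 3.73, SE 0.70, adjusted p = 1.04e-05). Its partner Cd79b ranged from 0.272 to 2.43 CPM (median 0.353) and from 0.971 to 17.2 CPM (median 2.54) in the same groups, a difference of 6.51-fold (log2 2.70, SE 0.63, adjusted p = 0.000213). Libraries KO_109_KO_PEG and KO_46_KO_PEG were the highest of the KO/PEG group for both, and 11 and 7 of 13 KO/PEG libraries were above the highest WT/PEG library. Ms4a1 ranged from 0 to 3.38 CPM in WT/PEG (median 0.504) and from 0.162 to 17.9 CPM in KO/PEG (median 0.847). Its difference of log2 1.70 (SE 0.69, adjusted p = 0.0254) rested on library KO_46_KO_PEG, the only KO/PEG library above the highest WT/PEG library. Without that library it was 0.58 (SE 0.60, adjusted p = 0.383). KO_46_KO_PEG also had the highest sum of erythrocyte markers of all libraries (4027 CPM, KO/PEG median 294), whose part was not tested.

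**Figure D2:**
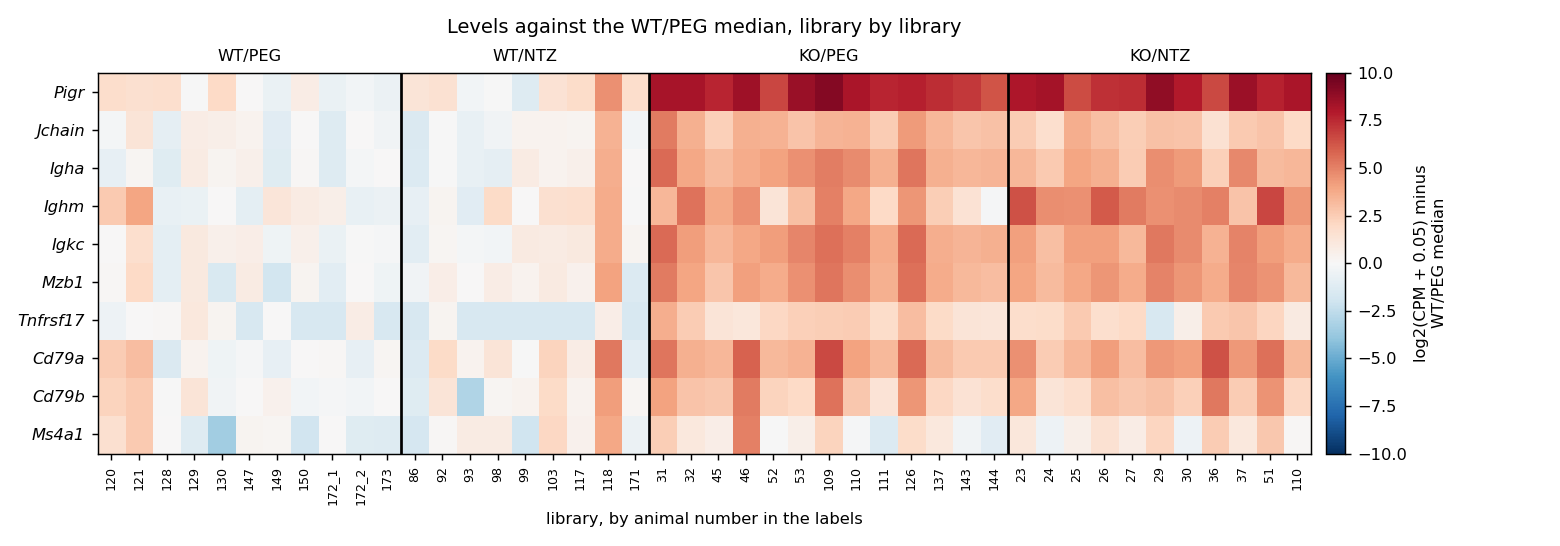
Level of each of the 10 genes (rows) in each library (columns, by animal number), as log2(CPM + 0.05) minus the WT/PEG median. Red is above and blue below that median, and both KO groups are red for Pigr, Jchain, Igha, Igkc and Mzb1, as is the WT column of WT_118_WT_YF.

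All WT/PEG libraries carry animal numbers of 100 or above, in comparison with 7 of the 13 KO/PEG libraries, and the labels do not say what the numbers mean. Among animals numbered 100 or above, the difference between KO/PEG and WT/PEG was log2 7.04 (SE 0.57) for Pigr, 4.47 (SE 0.48) for Igha, 3.27 (SE 0.45) for Jchain and 2.07 (SE 0.73, adjusted p = 0.0149) for Ighm. Ms4a1 was not called there (log2 0.39, SE 0.73, adjusted p = 0.640). The reference genes are those of GRCm38 and the mice were BalbC, and the part of strain differences in the immunoglobulin values was not tested.

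NTZ had no called effect on these genes in KO mice in the main fit. Of the 9 members, 0 were called between KO/NTZ and KO/PEG, against 5.57% of all genes, and 2 had an unadjusted p under 0.05. DESeq2 also called 0. These 2 genes moved in opposite directions. Ighm ranged from 46.5 to 633 CPM in KO/NTZ (median 163) and 10 of 11 libraries were above the KO/PEG median of 63.1 CPM. The difference was log2 1.52 (SE 0.58, 95% interval 0.36 to 2.69, p = 0.0118, adjusted p = 0.103). Jchain ranged from 67.2 to 292 CPM in KO/NTZ (median 150) and 10 of 11 libraries were below the KO/PEG median of 258 CPM. The difference was log2 -0.91 (SE 0.40, 95% interval -1.71 to -0.10, p = 0.0278, adjusted p = 0.153). When library WT_118_WT_YF, which belongs to neither group but adds to the shared estimate of the spread, was left out of the fit, Jchain was called lower (log2 -0.92, SE 0.29, adjusted p = 0.0475) and Ighm was not (adjusted p = 0.0835). Without the 10 KO libraries that stood apart, neither was called, at log2 2.11 (SE 0.79, adjusted p = 0.0909) for Ighm and -0.85 (SE 0.56, adjusted p = 0.340) for Jchain.

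For the other 7 tested members, the intervals bound the size that an effect of NTZ in KO mice could have in these data. Pigr was nearly level, with 919 to 4611 CPM in KO/NTZ (median 2427) and a difference of log2 -0.07 (95% interval -0.94 to 0.80, adjusted p = 0.926). Igha ranged from 505 to 2608 CPM in KO/NTZ (median 961), a difference of log2 -0.66 (95% interval -1.50 to 0.19, adjusted p = 0.314). Igkc ranged from 594 to 2910 CPM, with a difference of log2 -0.36 (95% interval -1.17 to 0.45). Mzb1 ranged from 4.66 to 17.0 CPM and differed by log2 -0.20 (95% interval -0.99 to 0.60). The B cell genes had wider intervals, from -1.27 to 1.03 for Cd79a, from -1.24 to 0.97 for Cd79b and from -2.02 to 0.60 for Ms4a1. Tnfrsf17 ranged from 0 to 0.983 CPM in KO/NTZ.

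Only 1 KO/NTZ library carries an animal number of 100 or above, so that the number series and the treatment largely overlap in KO mice. Among the KO animals numbered below 100, Ighm differed by log2 1.32 (SE 0.58, adjusted p = 0.197) and Jchain by -1.08 (SE 0.36, adjusted p = 0.121) between KO/NTZ and KO/PEG, both with the same sign as above.

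**Figure D3:**
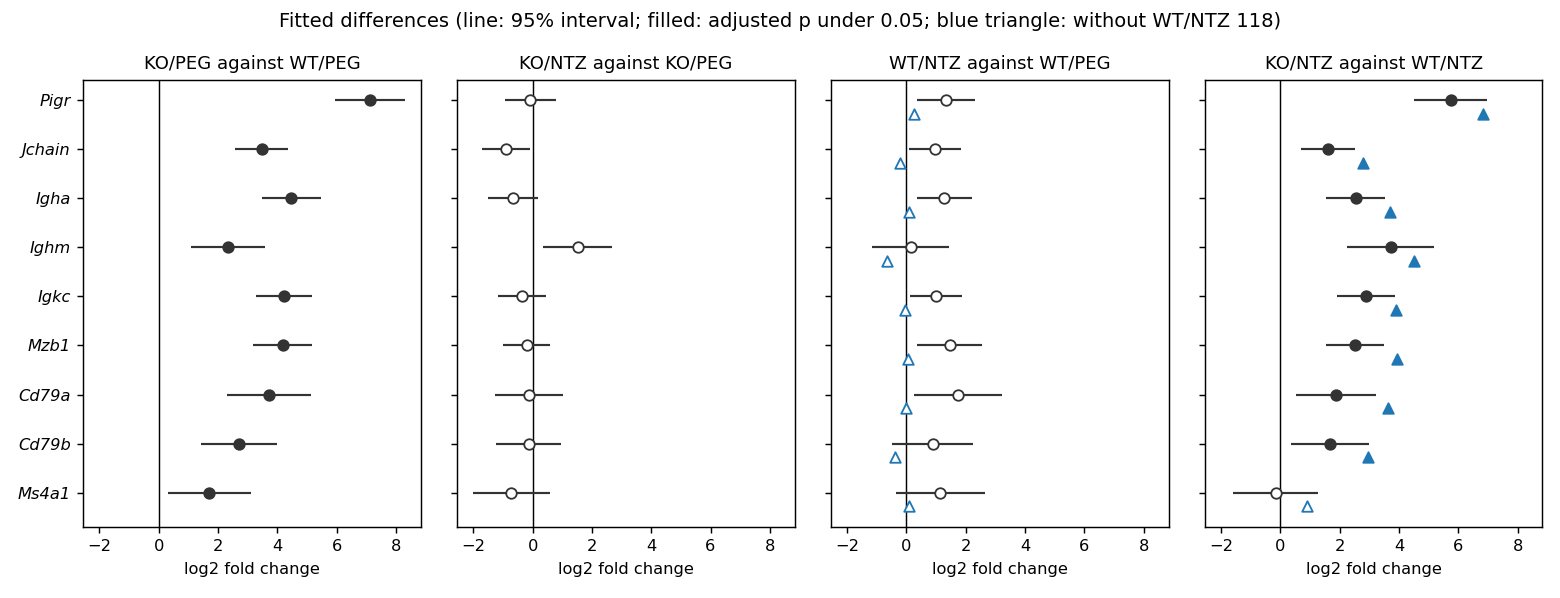
Fitted log2 fold change of the 9 tested genes in 4 comparisons, with the 95% interval as a line. Filled symbols have an adjusted p under 0.05 and blue triangles are the values without WT_118_WT_YF. All 9 are filled for KO/PEG against WT/PEG and none for KO/NTZ against KO/PEG, and the triangles lie between -0.66 (Ighm) and 0.24 (Pigr) for WT/NTZ against WT/PEG.

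In WT mice, the effect of NTZ on these genes depended on library WT_118_WT_YF. With it, 0 of 9 members were called between WT/NTZ and WT/PEG, against 1.03% of all genes, 6 had an unadjusted p under 0.05, DESeq2 called 0, and all 9 differences were above 0, up to log2 1.74 for Cd79a. Without it, again 0 of 9 were called, and the differences ranged from -0.66 for Ighm to 0.24 for Pigr (SE 0.40). The number of all genes called fell from 153 to 57 when it was left out. Pigr had 239 CPM in this library and at most 35.8 CPM in the other 8 WT/NTZ libraries, still below the lowest KO library. Igha had 1179 CPM against at most 168, Igkc 975 against at most 142, and Jchain 270 against at most 31.1. These levels lay within the KO ranges. Ms4a1 had 7.97 CPM against at most 2.31 in the other 8.

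Other immune transcripts were also raised in WT_118_WT_YF. Cd74, the chaperone of antigen-presenting MHC class II molecules, had 1870 CPM in it and at most 169 in the other 8 WT/NTZ libraries. Irf1, which acts in the response to interferon, had 138 CPM against at most 36.8. Cr2, a receptor of follicular B cells, had 5.35 CPM against at most 0.747, and Cxcl13, which attracts B cells to follicles, had 9.31 against at most 4.57. The summed T cell markers were 34.4 CPM in it, in comparison with a WT/NTZ median of 6.64. Its summed chief cell markers of 61589 CPM were the lowest of the WT/NTZ group (median 150197). Their part in the results was not tested.

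Under NTZ, KO mice again had higher levels of 8 of 9 members than WT mice, against 35.6% of all genes called higher and 72.4% called in either direction, and 8 were also called without WT_118_WT_YF. Pigr differed by log2 5.74 (SE 0.60, adjusted p = 1.47e-10) with that library and 6.82 (SE 0.54) without it, and was the only member whose groups did not overlap with it (14.4% of all genes were higher without overlap). Ighm differed by log2 3.72 (SE 0.73, adjusted p = 2.10e-05), Igkc by 2.88 (SE 0.48), Igha by 2.54 (SE 0.50), Mzb1 by 2.53 (SE 0.49) and Jchain by 1.61 (SE 0.45, adjusted p = 0.00160). Without WT_118_WT_YF they differed by 4.51, 3.91, 3.71, 3.92 and 2.79. Cd79a and Cd79b differed by 1.88 (SE 0.68) and 1.68 (SE 0.65), and by 3.62 and 2.95 without WT_118_WT_YF. Cd79b was not called when library KO_36_KO_YF was left out (log2 1.24, adjusted p = 0.0770). Without the 10 KO libraries that stood apart, 6 of 9 were called, and Cd79a (log2 1.54, SE 0.75, adjusted p = 0.0706) and Cd79b (log2 1.49, SE 0.69, adjusted p = 0.0595) were not. Ms4a1 was the member that was not called, with log2 -0.16 (SE 0.72, adjusted p = 0.852) and 0.90 (SE 0.74) without WT_118_WT_YF.

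The effect of NTZ in KO mice minus that in WT mice was called for 0 of 9 members, against 0.953% of all genes, and 5 had an unadjusted p under 0.05. DESeq2 called 0. The lowest p-values were those of Jchain (log2 -1.86, SE 0.59, p = 0.00292, adjusted p = 0.120) and Igha (log2 -1.93, SE 0.62, p = 0.00346, adjusted p = 0.128). Without WT_118_WT_YF these were -0.69 (SE 0.44, adjusted p = 0.656) and -0.75 (SE 0.47, adjusted p = 0.655).

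Per transcript length, Igha was the most abundant heavy chain in each of the 44 libraries. In KO mice it made up 95.4% ± 4.39 (SD, n = 13) of the heavy chain constant region level under PEG and 82.0% ± 12.9 (SD, n = 11) under NTZ. In WT mice the shares were 85.0% ± 17.3 (SD, n = 11) under PEG and 89.7% ± 7.22 (SD, n = 9) under NTZ. Ighm made up 3.49% ± 3.61 in KO/PEG, 15.4% ± 10.7 in KO/NTZ, 10.9% ± 11.1 in WT/PEG and 7.61% ± 6.73 in WT/NTZ. The ratio of Igha to Ighm had a median of 46.4 in KO/PEG (lowest 6.76, highest 262) and of 5.18 in KO/NTZ (lowest 1.88, highest 76.8). The WT/PEG median was 15.3 and that of WT/NTZ was 18.4. In the 8 KO/PEG and 6 KO/NTZ libraries that did not stand apart the medians were 61.7 and 3.37, and in the 10 that did they were 40.3 and 15.7. The ratio was formed after the values had been seen, so it was not tested. The IgG heavy chains of the reference (Ighg1, Ighg2b, Ighg2c and Ighg3) made up a median of 0.287% in KO/PEG and 0.472% in KO/NTZ. Their median was 1.40% in WT/PEG and 1.92% in WT/NTZ.

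The ends of the heavy chain transcripts tell the secreted from the membrane form. The Igha level was almost all of the secreted form, and the membrane form made up at most 0.436% of the per-length Igha level in any library. The membrane form of Ighm made up a median of 20.03% of the Ighm level in KO/PEG and 4.99% in KO/NTZ, and of 32.3% in WT/PEG and 42.9% in WT/NTZ. Within KO/PEG the median was 8.98% in the 5 libraries that stood apart and 29.4% in the other 8, and within KO/NTZ it was 5.47% in the 5 and 4.52% in the other 6. These shares are given as a description, with no test. In a fit across 30782 transcripts, both forms of Ighm were higher in KO/PEG than in WT/PEG, the secreted one by log2 2.42 (SE 0.75, adjusted p = 0.00621) and the membrane one by 1.81 (SE 0.54, adjusted p = 0.00507). Between KO/NTZ and KO/PEG the secreted form differed by log2 1.67 (SE 0.70, p = 0.0216, adjusted p = 0.205) and the membrane form by 0.17 (SE 0.52, adjusted p = 0.899). These differences were 2.33 (SE 0.97, adjusted p = 0.165) and 0.42 (SE 0.64, adjusted p = 0.810) without the 10 KO libraries. The secreted form ranged from 40.3 to 579 CPM in KO/NTZ and from 1.59 to 264 CPM in KO/PEG. The forms share most of their bases, and reads were single, so the split between them is an estimate.

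**Figure D4:**
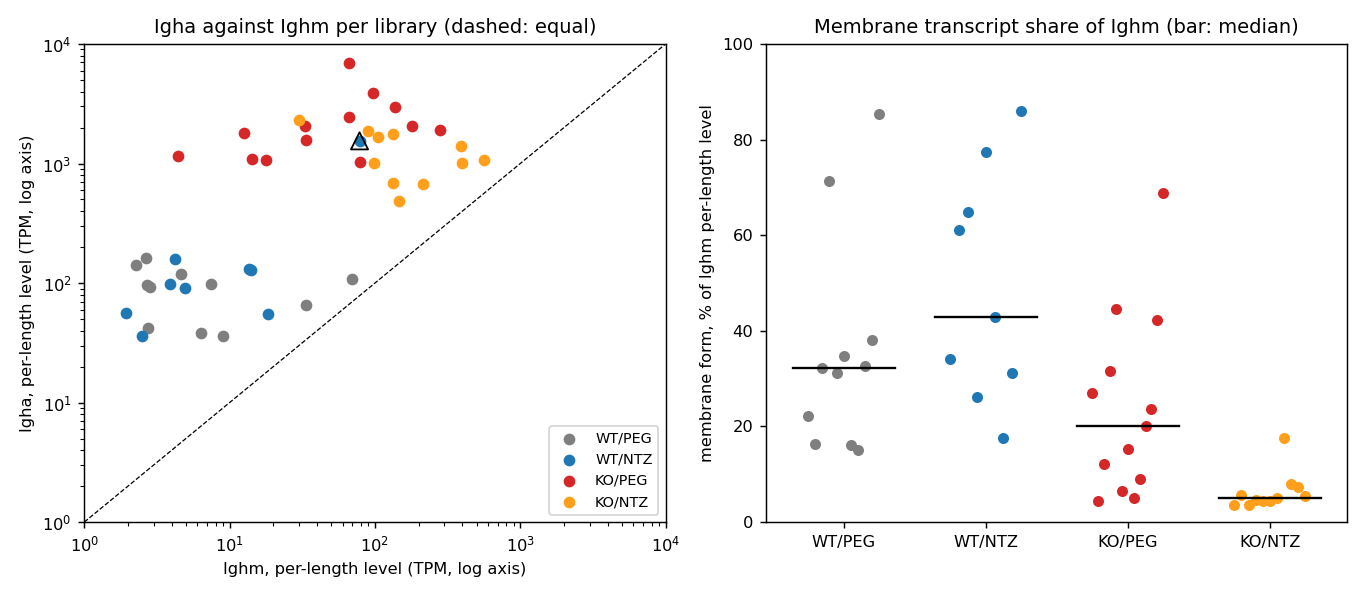
Left, per-length level (TPM, log axes) of Igha against Ighm in each library, with equal levels as a dashed line and WT_118_WT_YF as an open triangle. Right, the membrane form as a percent of the Ighm level, with the group median as a bar. All points lie above the dashed line, and the membrane share was lowest in KO/NTZ, with a highest value of 17.6%.

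The 268 immunoglobulin genes together took a median of 0.446% of the counts in KO/PEG libraries (lowest 0.228%, highest 1.42%) and of 0.0246% in WT/PEG libraries (lowest 0.0106%, highest 0.0655%). The median was 0.374% in KO/NTZ (lowest 0.169%, highest 0.489%) and 0.0245% in WT/NTZ, where the highest value was 0.345%. The 95% Wilson interval of the highest share, in KO_31_KO_PEG, ran from 1.416% to 1.426%. The mean log2 share was higher by 4.21 in KO/PEG than in WT/PEG (permutation test, 2-sided, 100000 resamples, p = 2e-05, adjusted over 4 comparisons 8e-05). This p is the smallest that these resamples can give. It was lower by log2 -0.48 in KO/NTZ than in KO/PEG (permutation p = 0.114, adjusted 0.152). WT/NTZ differed from WT/PEG by 0.39 (exact permutation p = 0.511) and by -0.05 without WT_118_WT_YF (exact permutation p = 0.890). KO/NTZ was higher than WT/NTZ by 3.35 (exact permutation p = 7.14e-05), and by 3.79 without that library. Without the 10 KO libraries that stood apart, KO/PEG differed from WT/PEG by 4.06 (exact permutation p = 2.65e-05, the smallest possible). The differences were then -0.38 for KO/NTZ against KO/PEG (exact permutation p = 0.390) and 3.29 for KO/NTZ against WT/NTZ (exact permutation p = 0.00160).

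The variable region genes, which encode the antigen-binding ends of antibodies, were counted as far as the reference holds them. Of the 113 heavy chain variable genes, a median of 26 had at least 3 counts in WT/PEG, 72 in KO/PEG and 43 in KO/NTZ. Of the 100 kappa variable genes, a median of 45 had at least 3 counts in WT/PEG, 76 in KO/PEG and 64 in KO/NTZ. More counts bring more genes to at least 3. The median count of heavy chain variable genes was 204 in WT/PEG, 1867 in KO/PEG and 532 in KO/NTZ. That of kappa variable genes was 458, 4656 and 1260. The gene numbers were not compared at equal counts, so they do not measure antibody diversity. The heavy chain number was 79 in the 8 KO/PEG libraries that did not stand apart and 56 in the 5 that did, and 71 in the 6 and 25 in the 5 KO/NTZ libraries. The kappa number was likewise 77 and 68 in KO/PEG, and 73 and 48 in KO/NTZ. The most abundant heavy chain variable gene took a median of 8.08% of the class in KO/PEG and 9.41% in KO/NTZ, and it was Ighv9-3 in 7 of 13 KO/PEG libraries. Igkv1-110 led the kappa class in 6 of 13 KO/PEG and 7 of 11 WT/PEG libraries. Lambda light chains made up 4.08% ± 1.14 (SD, n = 13) of the light chain level in KO/PEG and 5.90% ± 2.69 (SD, n = 11) in KO/NTZ.

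Within both KO groups, Igkc followed Igha from library to library, and Mzb1, Jchain and the B cell gene Cd79a did so in KO/PEG. Across the 13 KO/PEG libraries, Igkc followed Igha (Pearson's r = 0.994, permutation p = 1e-05, the smallest that the permutations can give; Spearman's rho = 0.995; adjusted p = 8e-05 over 16 relations), and r was 0.997 without the 2 libraries farthest from the median. Mzb1 followed Igha with r = 0.959 (rho = 0.956, adjusted permutation p = 8e-05) and r = 0.955 without the farthest 2. Jchain had r = 0.784 (rho = 0.769, adjusted permutation p = 0.00304) and 0.511 without the farthest 2. Ighm had r = 0.436 (rho = 0.445, adjusted permutation p = 0.210) and 0.449 without the farthest 2. Cd79a had r = 0.704 (rho = 0.731, adjusted permutation p = 0.0226) and 0.596 without the farthest 2. Cd79b had r = 0.588 (adjusted permutation p = 0.0689) and Ms4a1 had r = 0.348 (adjusted permutation p = 0.305). In KO/NTZ, Igkc had r = 0.932 (rho = 0.836, adjusted permutation p = 0.000533, 0.879 without the farthest 2). Mzb1 had r = 0.758 and rho = 0.673 in KO/NTZ (adjusted permutation p = 0.0226 for r and 0.0577 for rho), with r = 0.530 without the farthest 2. Jchain there had r = 0.650 (rho = 0.691, adjusted permutation p = 0.0689) and 0.756 without the farthest 2. Pigr, the epithelial gene, had r = 0.556 with Igha in KO/PEG (rho = 0.593, adjusted permutation p = 0.0857, r = 0.673 without the farthest 2). In KO/NTZ, Pigr had r = 0.457 (rho = 0.427, adjusted permutation p = 0.210), which fell to 0.023 without the farthest 2. Ighm there had r = -0.461 (rho = -0.545, adjusted permutation p = 0.210) and -0.056 without the farthest 2, so that this relation rested on those libraries. The B cell genes did not follow Igha in KO/NTZ, with r = -0.050 for Cd79a, -0.305 for Cd79b and -0.055 for Ms4a1.

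The 10 KO libraries that stood apart also had little Jchain for their Igha, at a per-length ratio of 0.0449 to 0.103, in comparison with 0.101 to 0.187 in the other 14. Within the other 8 KO/PEG libraries r with Igha was 0.973 for Jchain, 0.995 for Igkc, 0.927 for Mzb1, 0.409 for Pigr and 0.183 for Ighm. Within the other 6 KO/NTZ libraries it was 0.866 for Jchain, 0.846 for Igkc, 0.542 for Mzb1, -0.638 for Pigr and 0.146 for Ighm. For Cd79a it was 0.601 in the 8 and 0.344 in the 6. These values are given as a description, with no test. The sign for Pigr in KO/NTZ thus turned when the 5 libraries were left out, and rho was -0.6 there. For Ighm only Pearson's r turned, and rho stayed negative at -0.143.

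Among all tested genes, those whose log2 CPM was most like that of Pigr over the 44 libraries were Sftpd (r = 0.99), Tmem213 (0.97), Gpr55 (0.97), Gkn3 (0.97) and Tnfsf13 (0.97). For Igha they were Igkc (0.99), Jchain (0.97), Mzb1 (0.96), Cd14 (0.93) and Tnfsf13 (0.93). The 44 libraries span both genotypes, whose levels of these genes differ. Over the 24 KO libraries, Igha was most like Igkc (0.95), Ly6c2 (0.85), Mzb1 (0.82), Jchain (0.77) and Csf1r (0.64), and Pigr was most like Plcg2 (0.86), Sftpd (0.85), Trim65 (0.83), Acp2 (0.82) and Atp2c2 (0.81). Jchain was most like immunoglobulin joining segments, led by Ighj3 (0.89) and Igkj5 (0.87). Over the 14 KO libraries that did not stand apart, Igha was most like Jchain (0.95) and Ighj2 (0.93), Jchain was most like Igha (0.95) and Ighj3 (0.95), and Pigr was most like Inpp5d (0.93) and Camta2 (0.90). Over all 24, Ms4a1 was most like the B cell genes Ebf1 (0.89), Cd22 (0.88) and Btk (0.88), with Spn (0.87).

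Other plasma cell genes did not all follow. Of 16 tested, 9 were higher, 2 were lower and 5 were not called in KO/PEG against WT/PEG, with a median log2 difference of 0.43 (37.5% of all genes were called higher and 74.7% in either direction). Pou2af1, a coactivator of immunoglobulin genes, was 6.39-fold higher (log2 2.68, SE 0.40, adjusted p = 1.66e-07), and Cd38, a surface enzyme of plasma cells and other leukocytes, was 5.14-fold higher (log2 2.36, SE 0.25). Sec11c, a signal peptidase subunit, was higher by log2 0.96 (SE 0.12). Tent5c fell by 2.03 (SE 0.19, adjusted p = 2.17e-12) and Xbp1 fell by 0.24 (SE 0.08) on the log2 scale. Xbp1, the factor that expands the secretory apparatus, had a median of 380 CPM in WT/PEG, where the chief cell markers were high. In KO/NTZ against KO/PEG 0 of 16 were called by edgeR, against 5.57% of all genes, and 6 had an unadjusted p under 0.05. DESeq2 called 1 of them, Xbp1 (log2 -0.24, adjusted p = 0.0368).

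Of 18 other B cell genes tested, 14 were higher and 1, Ebf1 (log2 -0.68), was lower in KO/PEG than in WT/PEG, with a median of log2 1.69 (37.5% of all genes were called higher). Ebf1 was not called without the 10 KO libraries (log2 -0.57, SE 0.27, adjusted p = 0.0622). Blnk, an adaptor of the B cell receptor, was higher by log2 1.73 (SE 0.10), Cd72, a B cell coreceptor, by 2.46 (SE 0.29), Vpreb3 by 3.45 (SE 0.49) and Spib, a transcription factor, by 2.20 (SE 0.37). In KO/NTZ against KO/PEG 0 of 18 were called by edgeR, 0 by DESeq2, and 0 had an unadjusted p under 0.05. Between KO/NTZ and WT/NTZ 5 of 18 were higher, below the 35.6% of all genes, with 10 without WT_118_WT_YF and 4 without the 10 KO libraries. Blnk was called between WT/NTZ and WT/PEG, with log2 0.56 (SE 0.11, adjusted p = 0.00429) and 0.55 (SE 0.11, adjusted p = 0.0121) without WT_118_WT_YF, whereas the call of Cd74 was lost without it (log2 0.28, adjusted p = 0.99987). The summed squamous forestomach markers differed between these groups too, with a median of 0.892 CPM in WT/PEG and 551 CPM in WT/NTZ, and their part was not tested. Of 8 other constant region genes tested, 5 were higher in KO/PEG, led by the lambda genes Iglc1 (log2 2.95, SE 0.39), Iglc2 (4.69, SE 0.63) and Iglc3 (3.74, SE 0.68). Iglc2 and Iglc3 are near-identical copies whose reads may be split. Ighg2c, an IgG heavy chain, had log2 0.22 (SE 0.78, adjusted p = 0.805).

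Signals that attract and sustain IgA plasma cells are made by epithelium, stroma and myeloid cells. Of 13 tested genes of IgA class switch, survival and homing, 9 were higher and 2 lower (Aldh1a2 and Cxcl12) in KO/PEG than in WT/PEG. Their median was log2 1.46, and 37.5% of all genes were called higher. The 13 include Itgb7, Itga4 and Ltb, which lymphocytes themselves express, so the count does not measure tissue signals alone. Tnfsf13 (APRIL), a ligand of Tnfrsf17 that sustains plasma cells, rose from 1.41 ± 0.348 CPM (SD, n = 11) to 34.2 ± 12.6 CPM (SD, n = 13), a 23.7-fold difference (log2 4.57, SE 0.25, adjusted p = 7.70e-19). Ccl28, a mucosal chemokine for IgA plasma cells, rose from 13.2 ± 3.04 to 36.3 ± 12.1 CPM (log2 1.46, SE 0.19, adjusted p = 7.59e-09). Tgfb1, which directs the switch to IgA, was higher by log2 1.36 (SE 0.14).

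Between KO/NTZ and KO/PEG, 3 of these 13 genes were called, against 5.57% of all genes, and the 3 were also called without the 10 KO libraries. Ccl28 fell by 0.74 on the log2 scale (SE 0.18, adjusted p = 0.00969) to 21.7 ± 6.7 CPM (SD, n = 11). Ccl20, a chemokine for B cells and dendritic cells over lymphoid follicles, was 8.09-fold higher in KO/PEG than in WT/PEG and fell by 2.20 (SE 0.42, adjusted p = 0.000765) in KO/NTZ. Aldh1a2, an enzyme that makes retinoic acid, was lower in KO/PEG (log2 -1.35, SE 0.18) and higher in KO/NTZ than in KO/PEG (log2 0.65, SE 0.18, adjusted p = 0.0263). Tnfsf13 differed by log2 -0.28 (SE 0.20, adjusted p = 0.370).

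Pigr is known to respond to cytokines and microbial products. Of 14 tested genes of these signals, 7 were higher, 2 (Nfkb1 and Tlr4) were lower and 5 were not called in KO/PEG against WT/PEG. Their median was log2 0.27, and 37.5% of all genes were called higher and 74.7% in either direction. Nfkb1 was not called without the 10 KO libraries (log2 -0.12, adjusted p = 0.120). Tlr2, a receptor for bacterial lipoproteins, was 11.9-fold higher (log2 3.57, SE 0.35, adjusted p = 1.37e-11) and Tnf, an inflammatory cytokine, was 10.4-fold higher at a low level of 1.14 ± 0.79 CPM in KO/PEG (log2 3.38, SE 0.51). Il4ra, the receptor for interleukin 4, and Relb, an NF-kappaB subunit, were higher by 0.93 (SE 0.10) and 0.98 (SE 0.13). Il1b had 4.52 ± 1.73 CPM under vehicle in KO and 4.53 ± 2.02 CPM in WT mice and fell by 1.06 (SE 0.32, adjusted p = 0.0372) in KO/NTZ, where Pigr was not called. Il1b was not called there without the 10 KO libraries (log2 -0.69, adjusted p = 0.238). Of 7 other Fc receptor genes tested, 6 were higher in KO/PEG, against 37.5% of all genes. In KO/NTZ against KO/PEG 0 of 7 were called by edgeR with all libraries, 4 had an unadjusted p under 0.05, and DESeq2 called Fcgrt and Fcgr1. Without WT_118_WT_YF, edgeR called both, Fcgrt higher (log2 0.48, adjusted p = 0.0471) and Fcgr1 lower (log2 -0.67, adjusted p = 0.0317). Fcgrt, the neonatal receptor that carries IgG, was higher by log2 1.15 (SE 0.16), and Fcer1a, the receptor for IgE on mast cells, by 2.53 (SE 0.31).

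**Figure D5:**
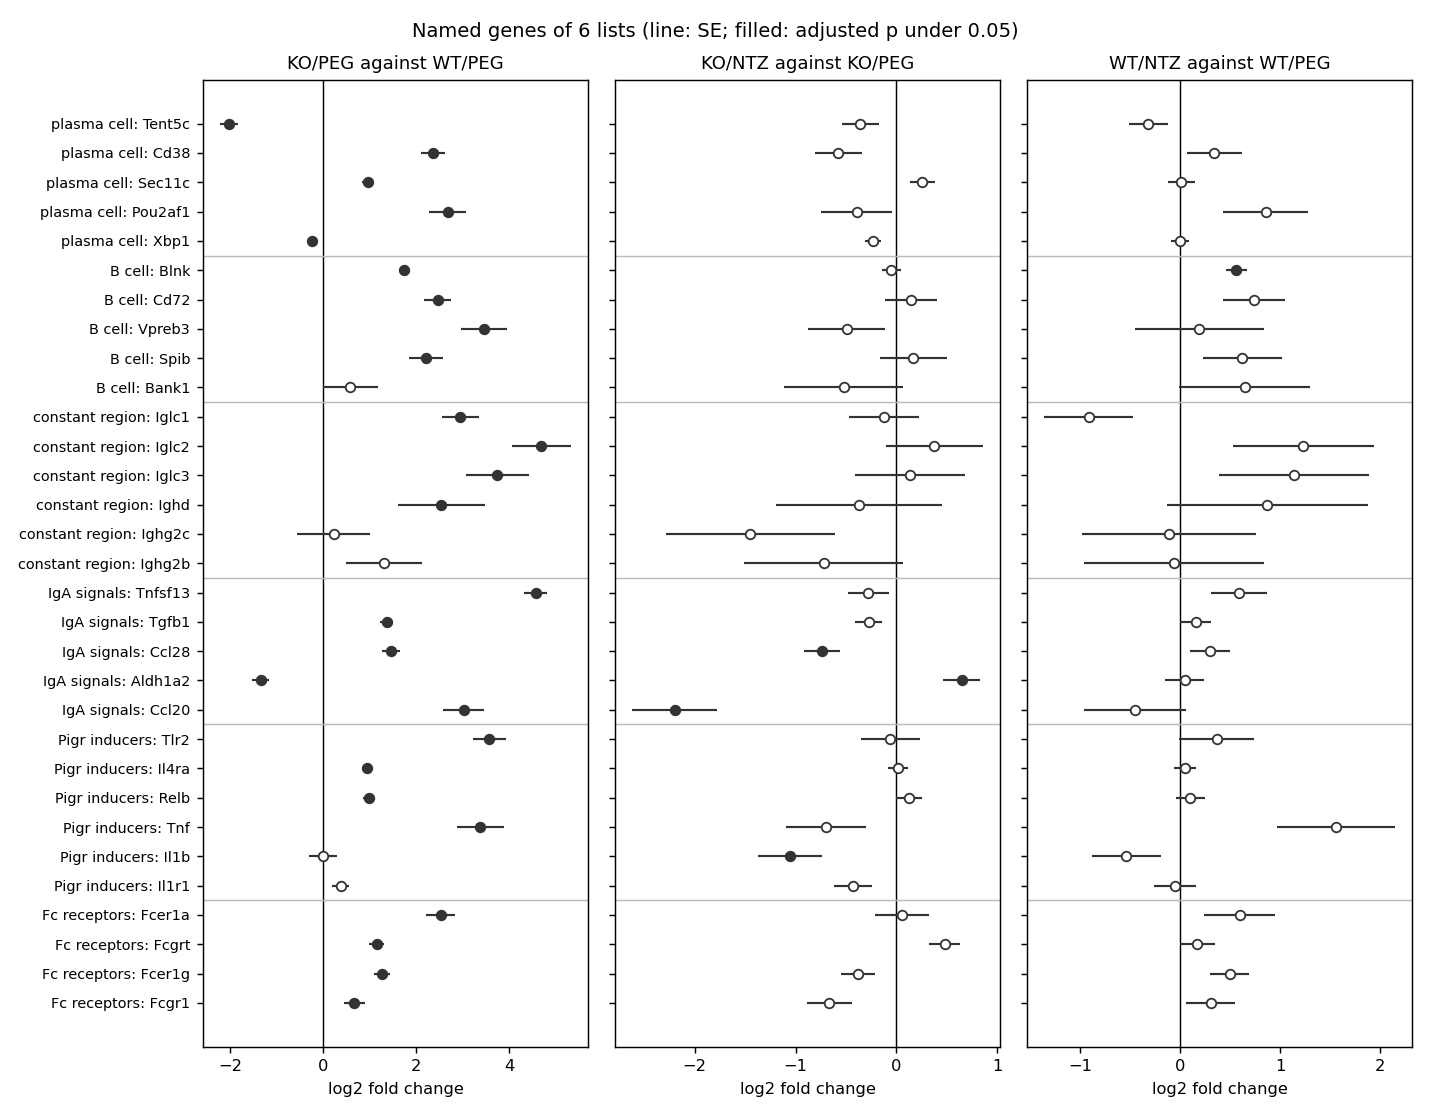
Fitted log2 fold change with its SE (line) for the named genes of the 6 other lists in 3 comparisons, with filled symbols for an adjusted p under 0.05. Filled symbols are many in KO/PEG against WT/PEG, and in KO/NTZ against KO/PEG only Ccl28, Aldh1a2, Ccl20 and Il1b are filled.

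Markers of other cell types moved with the genotype as well, in a comparison where 37.5% of all genes were called higher and 74.7% in either direction. Of 7 T cell markers 5 were higher in KO/PEG than in WT/PEG, and their sum ranged from 4.05 to 40.7 CPM in KO/PEG and from 4.27 to 16.5 CPM in WT/PEG. Of 5 tested myeloid markers 3 were higher, with mean sums of 158 and 105 CPM. Smooth muscle markers were lower for 3 of 3 tested in KO/PEG (854 ± 468 and 1598 ± 356 CPM summed) and for 1 of 3 without the 10 KO libraries. Between KO/NTZ and KO/PEG 1 of 3 was higher, against 5.57% of all genes called in either direction.

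Erythrocyte markers were higher for 4 of 4 in KO/PEG than in WT/PEG (median log2 2.10), against 37.5% of all genes. They were lower for 4 of 4 in KO/NTZ than in KO/PEG (median log2 -1.92), where 5.57% of all genes were called in either direction. The group medians of their sum lay closer together, at 209 CPM in WT/PEG, 294 CPM in KO/PEG and 198 CPM in KO/NTZ. Their sums ranged from 127 to 4027 CPM in KO/PEG, with 3734 CPM in KO_52_KO_PEG as the second highest, and from 62.1 to 327 CPM in WT/PEG. Liver markers were higher for 2 of 2 in KO/PEG, at sums of at most 11.7 CPM. Squamous forestomach markers had medians of 21.3 CPM in KO/PEG and 90.2 CPM in KO/NTZ, beside the WT medians given above, and reached 2957 CPM in a WT/NTZ, 506 in a KO/NTZ and 356 in a KO/PEG library. The part of these changes in tissue make-up in the results above was not tested.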

How the data were processed

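RNA of the gastric corpus was sequenced by the authors as single reads of stranded mRNA libraries. Per the labels, kallisto 0.42.4 and GRCm38 were used. The deposited values are estimated counts per transcript, made by the authors without further normalization. Of 94080 transcripts, 92284 were paired with a GENCODE vM21 gene name, and the remaining 1796 held 0.351% to 1.334% of a library's counts. The counts were summed per gene and rounded. Genes were kept by filterByExpr (minimum count 10, minimum total 15), and 14893 genes were scaled by TMM and tested with edgeR 4.0.16 (quasi-likelihood) in R 4.3.3, with the 4 groups in a single fit over 44 libraries and Benjamini-Hochberg adjustment over all genes. CPM are from this fit. TPM were computed here from counts divided by transcript length. The test was checked on simulated data. DESeq2 1.42.0, other scalings and filters, transcripts in place of genes, subsets by animal number and each library left out in turn were alternatives. The authors' test, Sleuth, was not repeated. Members, gene lists and the rule for named genes (from each list, the 4 genes with the smallest p in KO/PEG against WT/PEG and the 2 in KO/NTZ against KO/PEG) were chosen with earlier results of these data known. The Wilson interval covers counting error only, whereas the intervals of log2 differences cover the spread between libraries. KO libraries with over 0.8% of counts in transcripts without a gene name (10 libraries) were left out in an alternative added after seeing the data. Some genes that these rules would name are not reported here.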

Additional observations from a re-analysis of the deposited data

Results flagged for a closer look

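In the WT/NTZ group of 9 libraries, library WT_118_WT_YF was separated from the nearest other library by more than Dixon's 95% critical value (0.493 of the group's range) in 9 of 10 members and in the share of immunoglobulin genes. Chance flags about 1 in 20 groups where values are normally distributed, which CPM need not be. These genes also vary together, so the flags are not separate findings. Its values, with the next highest WT/NTZ library in parentheses, were 239 CPM (35.8) for Pigr, 270 CPM (31.1) for Jchain and 1179 CPM (168) for Igha. They were 84.1 CPM (24.3) for Ighm, 975 CPM (142) for Igkc and 8.88 CPM (0.951) for Mzb1. The B cell genes had 17.3 CPM (2.04) for Cd79a, 7.24 CPM (1.49) for Cd79b and 7.97 CPM (2.31) for Ms4a1. The share of immunoglobulin genes was 0.345% (0.0373%). Single high libraries of other groups, such as KO_46_KO_PEG for Ms4a1 (17.9 CPM, next highest KO/PEG library 2.94 CPM), are not listed here. A cause was not tested.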

How the results depend on the processing

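In place of the 9 higher calls in KO/PEG against WT/PEG, the other settings gave 7 to 10, with 7 to 10 members tested. Not every tested member was called under each setting, since Ms4a1 lost its call in some. Pigr, Jchain, Igha, Ighm, Igkc, Mzb1, Cd79a and Cd79b kept their side wherever they were tested. Leaving out each library in turn gave 8 to 9 calls there, 0 to 1 in KO/NTZ against KO/PEG (Jchain, without WT_118_WT_YF), 0 to 0 in WT/NTZ against WT/PEG and 7 to 8 in KO/NTZ against WT/NTZ. Among animals numbered 100 or above, 3 members (Pigr, Jchain and Igha) were called in WT/NTZ against WT/PEG, where WT_118_WT_YF is among 4 libraries. Ms4a1 was not called in KO/PEG against WT/PEG with the number series as a term (1.31) or with the most abundant transcript (2.12). Among animals numbered 100 or above it was not called either. In KO/NTZ against KO/PEG the sign turned with the number series as a term for Pigr (0.19), Mzb1 (0.084), Cd79a (0.25) and Cd79b (0.11), and among animals below 100 for Cd79a (0.053). It turned for Ighm in WT/NTZ against WT/PEG with the most abundant transcript (-0.16), and for Ms4a1 in KO/NTZ against WT/NTZ among animals below 100 (1.54). Leaving out a library moved the log2 difference in KO/NTZ against KO/PEG from -0.21 to 0.076 for Pigr, -0.54 to 0.22 for Cd79a, -0.58 to 0.17 for Cd79b and -0.96 to 0.41 for Ms4a1. In WT/NTZ against WT/PEG it ranged from -0.23 to 1.15 for Jchain, -0.66 to 0.99 for Ighm, -0.053 to 1.23 for Igkc, -0.019 to 2.23 for Cd79a and -0.40 to 1.23 for Cd79b, with the lowest values without WT_118_WT_YF. It ranged from -0.41 to 0.90 for Ms4a1 in KO/NTZ against WT/NTZ, and from -1.47 to 0.25 for Cd79b in the difference of the NTZ effects. Without the 10 KO libraries with over 0.8% unpaired counts, an alternative also chosen after seeing the data, Mzb1 turned to 0.056 in KO/NTZ against KO/PEG, and members called were 9 in KO/PEG against WT/PEG and 6 in KO/NTZ against WT/NTZ, where Cd79a (1.54) and Cd79b (1.49) were not called. The share of immunoglobulin genes in WT/NTZ against WT/PEG turned to -0.049 without WT_118_WT_YF, an alternative chosen after seeing the data. The cause was not tested. No paired analysis was possible because the groups compared share at most 1 animal number. Members below about 1 CPM rest on few counts.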
